A study of Mus musculus with 6 samples.

Results

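The genes described here are those of the mouse major histocompatibility complex (MHC, called H2 in the mouse) and of the machinery that loads antigen onto its products. They were chosen by name: every gene of the expression table whose symbol begins with H2-, apart from H2-Ke2 and H2-Ke6, which encode no MHC molecule, and a set of genes that act with them (B2m, Tap1, Tap2, Tapbp, Erap1, Psmb8, Psmb9, Psmb10, Nlrc5, Cd74, Ctss, Ciita, Cd207 and Cd1d1). The rule found 40 genes, 26 with an H2- name and 14 others, of the 15667 genes in the table. Of these 40, 38 had a mean of at least 1 CPM (the reads of a gene scaled to the same total in every library) and were tested, beside 14306 genes in all. The 2 that did not reach that level were H2-K2 and H2-Ob.

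RNA was sequenced from a punch of ear skin taken where ticks were feeding, 1 punch and 1 library per mouse. Adiponectin is a hormone that fat cells secrete. Adipo+/+ mice (WT, n = 3) were compared with Adipo-/- littermates (KO, n = 3), which carry the targeted null allele Adipoq tm1Chan on both chromosomes. All were females of 7 to 8 weeks on a mixed B6;129 background, and all had been bitten by 10 Ixodes scapularis ticks for 48 h, so that every library is from bitten skin. The comparison asks what the loss of adiponectin changes in bitten skin, and skin without ticks was not analysed here. The null allele is present in every cell of the KO mice. On a mixed background the stretch of chromosome 16 around Adipoq can differ in strain origin between the groups; of the genes described here, Ciita lies on that chromosome, 12.6 Mb from Adipoq. Which strain's MHC alleles each mouse carried was not tested.

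MHC class I molecules are made by nearly all cells and show peptides from inside the cell to CD8+ T cells. Their peptides are cut by the proteasome, carried into the endoplasmic reticulum by the TAP transporter, trimmed there by ERAP1 and fitted into a heavy chain that is held by beta-2-microglobulin. MHC class II molecules are made mainly by professional antigen-presenting cells, in skin the Langerhans cells of the epidermis and the dendritic cells and macrophages of the dermis, and show peptides from engulfed material to CD4+ T cells. Interferon gamma raises both sets, through the regulators NLRC5 for class I and CIITA for class II.

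The promoters of these genes are built from short shared boxes. RefSeq (GRCm38.p6) gave a promoter window, 250 bases before to 50 bases after the start of transcription, for 27 of the 40 genes. There was none for Cd1d1, Cd74, Ciita, H2-Ab1, H2-K2, H2-L, H2-Q5, H2-Q9, H2-T10, H2-T24, H2-T9, Nlrc5 and Tap2. Both strands were searched for 4 sets of letters: GGGANTCCC, a core to which NF-kB proteins bind (0.767% of 32851 promoter windows of all genes), TTTCACTTC, part of the interferon response sequence of class I genes (0.505%), CTGATTGG, the Y box bound by NF-Y (4.10%), and GCAACT, taken from the X box of class II genes (10.9%). The NF-kB letters stood in the windows of 4 of the 27 genes, the interferon letters in 7, the Y box in 10 and the X letters in 4. A match is a description of the letters and not evidence that a factor binds. Other forms of these boxes were not searched, and no link between letters and levels was tested.

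The 30 bases that end with the interferon letters are shown for the 7 genes that hold them, because the gene with the lowest unadjusted p below, H2-Q10, differs from H2-K1 and H2-D1 within this stretch. Capitals mark the NF-kB letters and the interferon letters.
H2-K1: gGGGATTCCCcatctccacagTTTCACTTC
H2-D1: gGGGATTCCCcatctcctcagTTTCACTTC
H2-Q6: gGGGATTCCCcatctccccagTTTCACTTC
H2-Q7: tgGGGATTCCCatctccccagTTTCACTTC
H2-Q4: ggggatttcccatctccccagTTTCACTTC
H2-Q10: gaggactccccatctccccagTTTCACTTC
H2-M3: attcccccatttcctctgaggTTTCACTTC
H2-K1, H2-D1, H2-Q6 and H2-Q7 held both sets of letters. H2-Q4, H2-Q10 and H2-M3 held the interferon letters without the letters searched for NF-kB. Other forms of the NF-kB site were not searched. Placed base under base with H2-K1, the stretches of H2-D1 and H2-Q6 were equal at 29 of 30 positions, that of H2-Q4 at 28, that of H2-Q10 at 27, that of H2-Q7, where the letters are shifted by 1 base, at 25 and that of H2-M3 at 14. The stretch of H2-K1 lies at chr17:34000429-34000458 on the minus strand, from -111 to -82 where -1 is the last base before the start. That of H2-Q10 lies at chr17:35469913-35469942 on the plus strand, from -176 to -147.

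The 200 bases before the start are shown for these 2 genes, with the same capitals, to give the surroundings of the stretch. The H2-K1 bases are chr17:34000348-34000547 (minus strand) and the H2-Q10 bases chr17:35469889-35470088 (plus strand).
H2-K1: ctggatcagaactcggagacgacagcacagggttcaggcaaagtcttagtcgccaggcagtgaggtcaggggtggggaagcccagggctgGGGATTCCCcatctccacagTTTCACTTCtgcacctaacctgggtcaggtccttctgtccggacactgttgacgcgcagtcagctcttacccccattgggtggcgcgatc
H2-Q10: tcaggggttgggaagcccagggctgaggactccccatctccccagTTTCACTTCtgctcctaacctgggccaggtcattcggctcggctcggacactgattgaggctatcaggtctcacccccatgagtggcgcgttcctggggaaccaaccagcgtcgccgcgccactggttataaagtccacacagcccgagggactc
H2-Q10, H2-Q4 and H2-M3 also had no Y box in their windows, whereas H2-D1, H2-Q6, H2-Q7 and H2-K1 had one. That of H2-K1 begins after its start and is outside the bases printed.

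Among class II genes, the X letters followed by a Y box on the same strand, with starts 15 to 40 bases apart, stood in H2-Aa and H2-Eb1, and in 0.0183% of all promoter windows (6 of 32851). H2-DMa, H2-DMb1, H2-DMb2 and H2-Ob held no such pair, and H2-Ab1 had no window. The 140 bases before the starts of H2-Aa and H2-Eb1 are shown with the X letters and the Y box in capitals. They lie at chr17:34287824-34287963 (minus strand) for H2-Aa and at chr17:34305727-34305866 (plus strand) for H2-Eb1.
H2-Aa: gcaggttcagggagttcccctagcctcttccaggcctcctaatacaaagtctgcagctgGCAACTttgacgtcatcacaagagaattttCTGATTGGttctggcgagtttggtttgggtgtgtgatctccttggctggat
H2-Eb1: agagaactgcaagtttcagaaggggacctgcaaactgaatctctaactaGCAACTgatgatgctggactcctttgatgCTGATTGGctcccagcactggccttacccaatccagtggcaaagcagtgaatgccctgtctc
The starts of both boxes were 30 bases apart in H2-Aa and 29 in H2-Eb1.

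Tap1 and Psmb9 are read in opposite directions from 1 stretch, with 225 bases between their starts. A single Y box stands next to the start of Psmb9, here in capitals on the strand of Tap1 (chr17:34187331-34187360), so that both windows contain the same box.
Tap1: tttCCAATCAGcggctgcgcgcggtgcagg

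Adipoq was read at 30.5, 63.7 and 49.6 CPM in the WT libraries and at 0, 0.561 and 0 CPM in the KO libraries, as the labels require. The steps between low values put the depth at 3403691 to 6591415 reads per library, so that 3 reads amount to 0.455 to 0.881 CPM. Over all genes tested, the median log2 fold change (KO minus WT) was -0.032. Libraries of a group differed in the makeup of the punch: summed hair follicle markers ranged from 8.23 to 21029 CPM in WT and from 869 to 8454 CPM in KO, and summed neutrophil markers from 71.4 to 603 CPM in WT and from 132 to 233 CPM in KO. In whole skin, fewer cells of a type and less RNA per cell cannot be told apart.

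Levels within the set differed widely in both genotypes. Together the 40 genes took 0.283%, 0.425% and 0.272% of all reads in the WT libraries and 0.272%, 0.331% and 0.357% in the KO libraries. The groups overlapped, and the highest of the 6 shares was in WT replicate 2. The set makes up 0.255% of the genes in the table. Of the 40 genes, 8 had a mean of at least 100 CPM and 24 of at least 10 CPM, and 16 lay below 10 CPM. Markers of the cells that use class II were present in both groups. The macrophage list (12 of 12 in the table) summed to 603 to 1201 CPM in WT and 576 to 1131 CPM in KO. The dendritic cell list (10 of 10) was low, at 38.6 to 54.7 CPM in WT and 35.2 to 48.8 CPM in KO. Of its 10 genes 6 averaged at least 1 CPM, and 2 of its values were 0. The general leukocyte list (4 of 4) summed to 139 to 257 CPM in WT and 160 to 258 CPM in KO. All 4 leukocyte markers, Ptprc included, were above 0 in every library. The B cell markers were not analysed here.

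**Figure D1:**
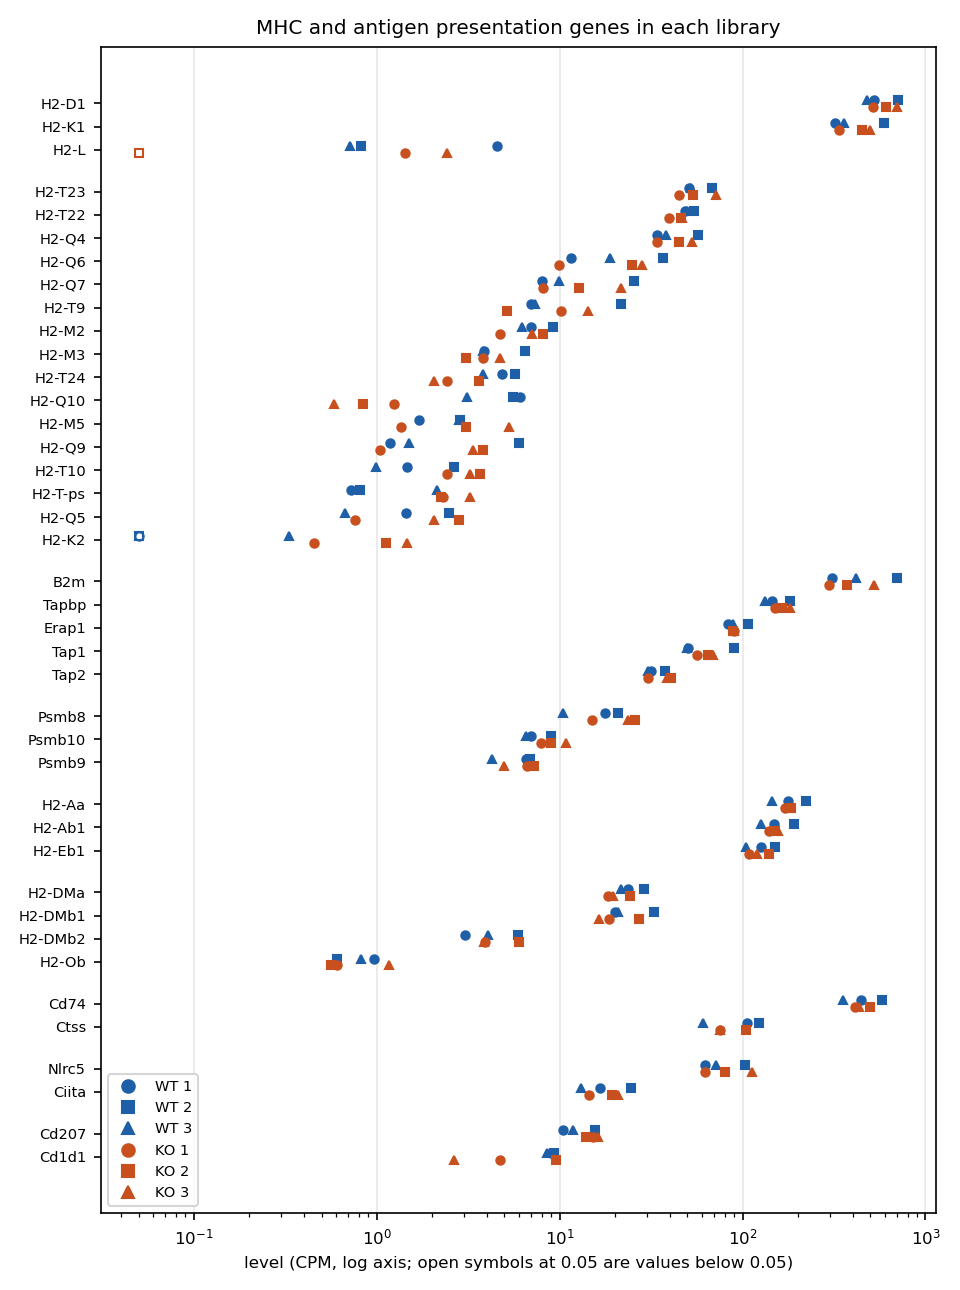
Level of each of the 40 genes in CPM on a log axis, with WT libraries in blue and KO libraries in orange, 1 symbol per replicate number, in blocks by role from class I heavy chains (top) to Cd207 and Cd1d1 (bottom). H2-K1, H2-D1, B2m, Cd74 and the class II chains lie above 100 CPM with the groups interleaved, and H2-Q10 is a gene whose blue symbols all lie to the right of the orange ones.

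To compare genes with each other, levels were divided by exonic length (GENCODE M21), which was known for 37 of the 40 genes. The paper names a release of Ensembl transcripts for counting. These lengths can therefore differ from those counted, and the order is approximate. Per kilobase, B2m was the highest at a mean of 507 CPM per kb (346 to 815 over the 6 libraries). Cd74 followed at 319 CPM per kb (250 to 406), H2-D1 at 281 (228 to 338) and H2-K1 at 258 (194 to 361). The class II chains stood below these, H2-Aa at 160 CPM per kb, H2-Ab1 at 126 and H2-Eb1 at 74.6. Of the 35 neighbouring pairs among genes with a level above 0 in every library, the ranges over libraries were separate in 3, namely H2-Ab1 above H2-Eb1, H2-T23 above H2-T22, and H2-T10 above H2-Ob. Compared within each library, the order held in all 6 for 9 of the 35 pairs, B2m above Cd74 and H2-Aa above H2-Ab1 among them, and changed between libraries for the others. The lowest were H2-K2 at 0.329 and H2-Ob at 0.225 CPM per kb.

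No gene of this set passed an adjusted p of 0.05 between KO and WT. The limma test, adjusted by Benjamini-Hochberg over all 14306 genes, gave adjusted p values from 0.998 to 0.9996 over the 38 genes, and called 2 genes (0.014%) in the whole table. At an unadjusted p below 0.05, 2 of the 38 were lower in KO, H2-Q10 and H2-T24, against 1.82% of all genes, and 0 were higher, against 1.06% of all genes. The groups were separate for 4 of the 38: KO was the lower group for 3 (H2-Q10, H2-T24 and H2-T22), as for 4.89% of all genes, and the higher for 1 (H2-T-ps), as for 2.95%. The shares of members at these limits are small counts, and no test of the list was made. The log2 fold change was below 0 for 18 and above 0 for 20 (47.4% below 0, beside 56.7% of all genes), with a median of 0.02 beside -0.032. For 31 of the 38 it was within 0.3 of 0, and the 95% interval contained 0 for 36.

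**Figure D2:**
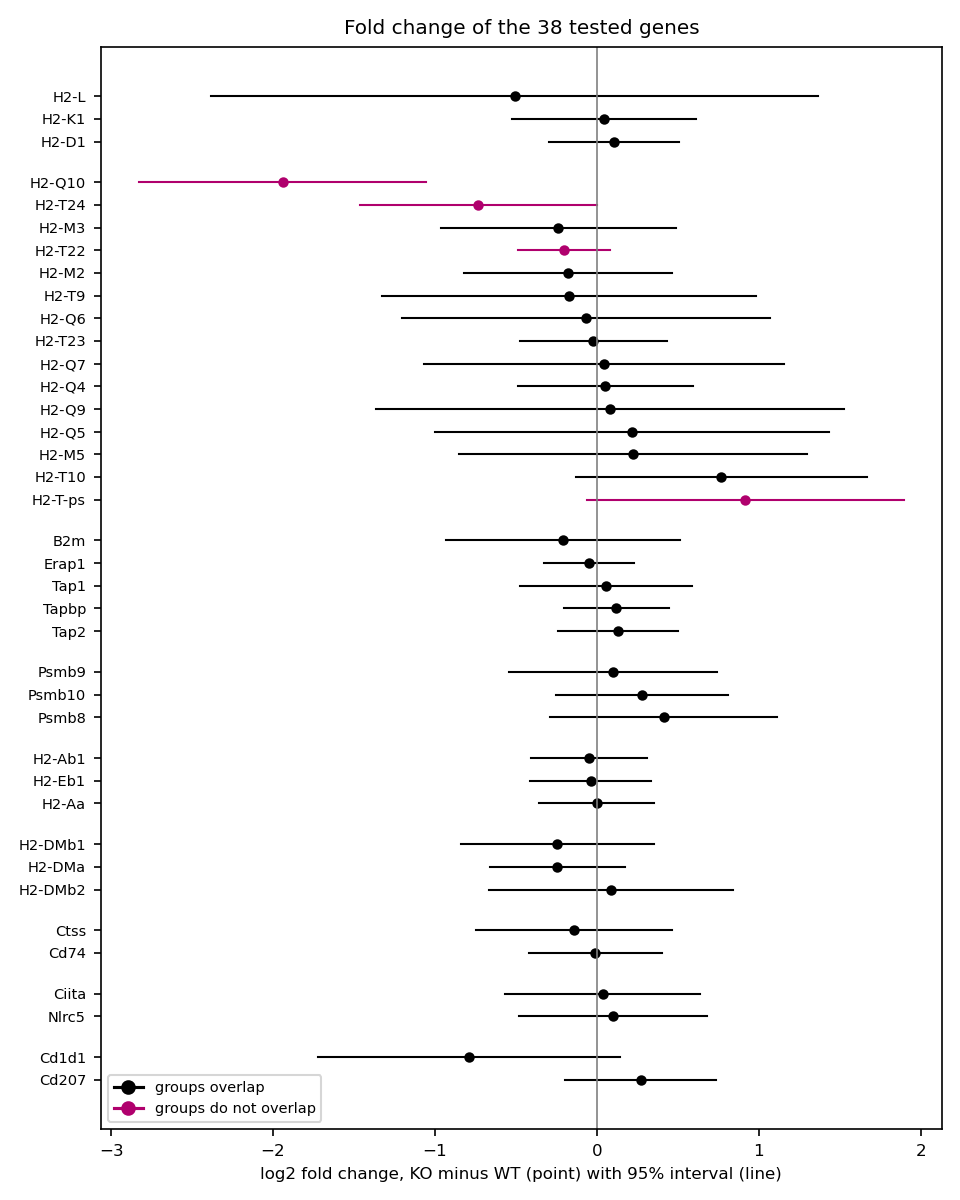
Log2 fold change (KO minus WT, point) with its 95% interval (line) from limma for the 38 tested genes, in blocks by role; magenta marks genes whose 3 KO and 3 WT libraries do not overlap. The intervals of H2-Q10 and H2-T24 lie wholly below 0, the latter barely, and those of the other 36 genes contain 0; the class II chains sit within 0.05 of 0.

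H2-K1 and H2-D1 encode the classical class I heavy chains, which present peptides to CD8+ T cells. H2-K1 was at 321, 597 and 360 CPM in WT and at 336, 453 and 497 CPM in KO. H2-D1 was at 523, 711 and 479 CPM in WT and at 520, 610 and 699 CPM in KO. For both genes the highest library was WT replicate 2 and the groups overlapped. The log2 fold changes were 0.04 (SE 0.25, unadjusted p = 0.87) for H2-K1 and 0.11 (SE 0.17, unadjusted p = 0.56) for H2-D1, with 95% intervals of -0.53 to 0.61 and -0.30 to 0.51. H2-L, annotated wholly within H2-D1 on the same strand, was low, at 0.717 to 4.54 CPM in WT and from practically 0 to 2.43 CPM in KO. The reads of H2-L and H2-D1 were shared out by the authors' method, so H2-L is uncertain.

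B2m encodes beta-2-microglobulin, the light chain of every class I molecule. It was at 307, 701 and 415 CPM in WT and at 297, 371 and 524 CPM in KO. WT replicate 2 was the highest and KO replicate 1 the lowest, a 2.36-fold range, and the groups overlapped. The log2 fold change was -0.21 (SE 0.31, unadjusted p = 0.52), and without WT replicate 2 it was 0.11. The ratio of B2m to the sum of H2-K1 and H2-D1 ran from 0.348 to 0.536 over the 6 libraries, a 1.54-fold range.

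Tap1 and Tap2 encode the subunits of the peptide transporter. Tap1 was at 50.1, 89.7 and 50.0 CPM in WT and at 56.4, 64.7 and 69.0 CPM in KO. The WT mean was raised by replicate 2 and all KO libraries lay between the WT extremes, with a log2 fold change of 0.06 (SE 0.23, unadjusted p = 0.82). Tap2 was at 31.7, 37.6 and 30.5 CPM in WT and at 30.5, 40.6 and 38.8 CPM in KO, with a log2 fold change of 0.13 (SE 0.16, unadjusted p = 0.43).

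Tapbp encodes tapasin, which bridges the transporter and the heavy chain. It was at 144, 182 and 133 CPM in WT and at 151, 165 and 181 CPM in KO, with overlapping groups and a log2 fold change of 0.12 (SE 0.14, unadjusted p = 0.41). Erap1, the peptide trimmer, was the steadiest gene of the set by the ratio of highest to lowest library: it was at 83.0, 107 and 89.0 CPM in WT and at 90.3, 88.3 and 89.3 CPM in KO. The KO libraries lay within the WT range, and the log2 fold change was -0.05 (SE 0.12, unadjusted p = 0.68).

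The immunoproteasome subunits replace the constitutive catalytic subunits of the proteasome in immune cells and under interferon. Psmb8 was at 17.7, 20.7 and 10.4 CPM in WT and at 15.02, 25.8 and 23.8 CPM in KO. Psmb9 was at 6.54, 6.92 and 4.29 CPM in WT and at 6.68, 7.29 and 4.99 CPM in KO. Psmb10 was at 7.02, 8.95 and 6.59 CPM in WT and at 7.89, 8.97 and 10.9 CPM in KO. For all 3 genes WT replicate 3 was the lowest library and the groups overlapped. The log2 fold changes were above 0 for all 3, at 0.41 (SE 0.30, unadjusted p = 0.21), 0.10 (SE 0.28, unadjusted p = 0.73) and 0.28 (SE 0.23, unadjusted p = 0.26).

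Each immune subunit was also set against the constitutive subunit whose place it takes. The ratio of Psmb8 to Psmb5 was 0.269, 0.320 and 0.204 in WT and 0.206, 0.508 and 0.438 in KO, so that 2 of the 3 KO libraries were above the WT range. The ratio of Psmb10 to Psmb7 was 0.0898, 0.114 and 0.0903 in WT and 0.0939, 0.130 and 0.152 in KO, again with the groups overlapping. The ratio of Psmb9 to Psmb6 was 0.0599 to 0.0974 in WT and 0.0780 to 0.0985 in KO. The differences of the log2 ratios (KO minus WT) were 0.45, 0.32 and 0.11 in that order, with two-sided exact permutation p values of 0.40, 0.20 and 0.80 and adjusted values of 0.60, 0.60 and 0.80 over the 3 ratios. With 3 mice against 3 the exact test cannot go below 0.10. Leaving out 1 library, the difference was 0.20 (without KO replicate 2) to 0.84 (without KO replicate 1) for Psmb8 to Psmb5 and 0.17 (without KO replicate 3) to 0.51 (without KO replicate 1) for Psmb10 to Psmb7.

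Nlrc5 encodes the regulator that switches on class I genes and Ciita that of class II genes. Nlrc5 was at 62.4, 103 and 71.2 CPM in WT and at 62.2, 80.4 and 113 CPM in KO. Ciita was at 16.7, 24.6 and 13.0 CPM in WT and at 14.4, 19.3 and 20.9 CPM in KO. Both were at about the same mean in the groups, with log2 fold changes of 0.10 (SE 0.25, unadjusted p = 0.70) and 0.04 (SE 0.26, unadjusted p = 0.89).

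H2-Aa encodes a class II alpha chain, and H2-Ab1 and H2-Eb1 encode class II beta chains. H2-Aa was at 177, 222 and 145 CPM in WT and at 171, 185 and 181 CPM in KO. H2-Ab1 was at 149, 192 and 127 CPM in WT and at 140, 150 and 157 CPM in KO. H2-Eb1 was at 126, 150 and 104 CPM in WT and at 108, 140 and 119 CPM in KO. For all 3 genes WT replicate 2 was the highest library, WT replicate 3 the lowest, and every KO library lay between them.

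The log2 fold changes of these chains were 0.0003 (SE 0.15, unadjusted p = 0.998) for H2-Aa, -0.05 (SE 0.15, unadjusted p = 0.77) for H2-Ab1 and -0.04 (SE 0.16, unadjusted p = 0.81) for H2-Eb1. Their 95% intervals ran from -0.35 to 0.36, -0.40 to 0.31 and -0.41 to 0.33, so that a larger change than these in either direction lay outside the intervals. The ratio of H2-Aa to H2-Ab1 was between 1.14 and 1.23 in all 6 libraries, a 1.08-fold range, while H2-Aa itself ranged 1.53-fold.

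Cd74 encodes the invariant chain, which blocks the class II groove until it reaches the endosome. It was at 442, 575 and 354 CPM in WT and at 410, 495 and 434 CPM in KO, with a log2 fold change of -0.01 (SE 0.18, unadjusted p = 0.96). The ratio of Cd74 to the 3 summed chains was 0.941 to 1.04 over the 6 libraries. Ctss encodes cathepsin S, which cuts the invariant chain away. It was at 106, 123 and 61.0 CPM in WT and at 75.4, 104 and 75.5 CPM in KO, with a log2 fold change of -0.14 (SE 0.26, unadjusted p = 0.61). Without WT replicate 3, which was the lowest, the log2 fold change of Ctss was -0.44 at an unadjusted p of 0.033 (limma adjusted p = 0.92).

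H2-DMa and H2-DMb1 encode the class II peptide editor. H2-DMa was at 23.7, 29.1 and 21.6 CPM in WT and at 18.5, 24.4 and 19.7 CPM in KO. H2-DMb1 was at 20.2, 32.9 and 20.8 CPM in WT and at 18.5, 27.1 and 16.4 CPM in KO. The groups overlapped for both, with log2 fold changes of -0.24 (SE 0.18, unadjusted p = 0.21) and -0.24 (SE 0.26, unadjusted p = 0.37). Without WT replicate 2 they were -0.13 and -0.02, and without KO replicate 2 -0.36 and -0.45. H2-DMb2 had a log2 fold change of 0.09 and levels of 3.05 to 5.98 CPM. H2-Ob, the beta chain of the inhibitor of the editor, was at 0.610 to 0.968 CPM in WT and at 0.561 to 1.18 CPM in KO and was not tested. H2-Oa, H2-Ea and H2-Eb2 were not analysed here.

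The nonclassical class I genes showed more spread than the others. These heavy chains are less polymorphic, and some present lipids, formylated peptides or leader peptides instead of ordinary ones. Over the 15 tested, the median ratio of the highest to the lowest library was 3.68, beside 1.599 over the 8 class II members and 1.62 over the 14065 tested genes with a level above 0.01 CPM in every library. Several of the 15 are low and rest on few reads. Many of these genes are near-identical copies, and 2 of them are annotated inside another on the same strand: H2-Q9 lies within H2-Q7 and H2-T9 within H2-T22. Their reads were divided by the authors' method and their separate levels are uncertain.

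H2-Q10 was the gene with the lowest unadjusted p. It encodes a secreted class I protein that is known chiefly from the liver. It was at 6.05, 5.57 and 3.13 CPM in WT and at 1.25, 0.841 and 0.588 CPM in KO. The KO libraries all fell short of the lowest WT library. The log2 fold change on the log2(CPM + 0.5) scale was -1.94 (SE 0.38, 95% interval -2.83 to -1.05, unadjusted p = 0.0010), and the adjusted p over all genes in limma was 0.998. The values rest on few reads: 25, 27.4 and 19 in the WT libraries and 8.24, 3 and 2 in the KO libraries. At its mean level H2-Q10 was 1.46 CPM per kb, beside 281 for H2-D1. The part of the promoter letters printed above in the level of H2-Q10 was not tested.

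Some markers of the punch had lower means in KO too. The adipocyte list had log2 fold changes below 0 for 5 of 5 genes (2 at an unadjusted p below 0.05), summing to 189 to 329 CPM in WT and 93.6 to 263 CPM in KO, and the endothelial list for 5 of 5 (1 at an unadjusted p below 0.05), summing to 119 to 129 CPM in WT and 81.9 to 117 CPM in KO. The skeletal muscle list (5 of 5, 1 at an unadjusted p below 0.05) and the T cell list (6 of 6 tested, 0) also had log2 fold changes below 0, while those of the keratinocyte (5 of 5) and hair follicle (6 of 6) lists were above 0, with 0 at an unadjusted p below 0.05. Values below 0 were found for 10 of 12 macrophage, 3 of 4 leukocyte, 4 of 6 dendritic cell and 4 of 7 neutrophil markers tested. Both Langerhans cell markers were above 0, and these lists held 0 genes at an unadjusted p below 0.05. Of all genes tested, 56.7% were below 0. At an unadjusted p below 0.05, 1.82% of all genes were lower in KO and 1.06% higher. The part of these cells and tissues in the level of H2-Q10 was not tested. On the log2 scale, adipocyte markers deviated from the mean of the 6 libraries by medians of 0.03, 0.70 and 0.77 in WT. H2-Q10 was at 6.05, 5.57 and 3.13 CPM there. In KO the medians were -1.11, 0.44 and -0.92, and H2-Q10 was at 1.25, 0.841 and 0.588 CPM. These KO levels rested on 8.24, 3 and 2 reads in libraries of unlike depth.

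H2-T24 was the other gene below an unadjusted p of 0.05. It was at 4.84, 5.70 and 3.79 CPM in WT and at 2.43, 3.64 and 2.06 CPM in KO. The groups did not overlap, though KO replicate 2 and WT replicate 3 were close. The log2 fold change was -0.73 (SE 0.32, unadjusted p = 0.0497; limma adjusted p = 0.998), on 71 reads in WT and 36 in KO. Across 15 alternative settings its unadjusted p ran from 0.020 to 0.15 and was below 0.05 in 7.

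H2-T22, whose product is known to bind receptors of gamma delta T cells, had no overlap either, although its difference was small. It was at 48.7 to 54.1 CPM in WT and at 39.6 to 46.7 CPM in KO, with a log2 fold change of -0.20 (SE 0.12, unadjusted p = 0.13). H2-T9, which overlaps it, was at 6.94 to 21.6 CPM in WT and at 5.18 to 14.4 CPM in KO.

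H2-T-ps and H2-T10 had the lowest unadjusted p among members with higher means in KO. H2-T-ps is annotated as a pseudogene by GENCODE and as protein-coding by RefSeq. H2-T10 is a polymorphic pseudogene in GENCODE and a transcribed pseudogene in RefSeq. H2-T-ps was at 0.726, 0.814 and 2.14 CPM in WT and at 2.30, 2.24 and 3.23 CPM in KO. KO thus lay above WT without overlap, by a small margin over WT replicate 3. H2-T10 was at 1.46, 2.64 and 0.993 CPM in WT and at 2.43, 3.65 and 3.24 CPM in KO, with 1 KO library below the highest WT library. The log2 fold changes were 0.92 (SE 0.42, unadjusted p = 0.062) and 0.77 (SE 0.39, unadjusted p = 0.084).

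These levels again rest on few reads. H2-T-ps had 20 reads in WT and 34.2 in KO, and H2-T10 had 25.1 and 40.1. H2-K2, a pseudogene below the filter, was at 0, 0 and 0.330 CPM in WT and at 0.455, 1.12 and 1.47 CPM in KO, on 2 reads in WT and 12 in KO. When no filter was applied its unadjusted p was 0.022 (limma adjusted p = 0.999).

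**Figure D3:**
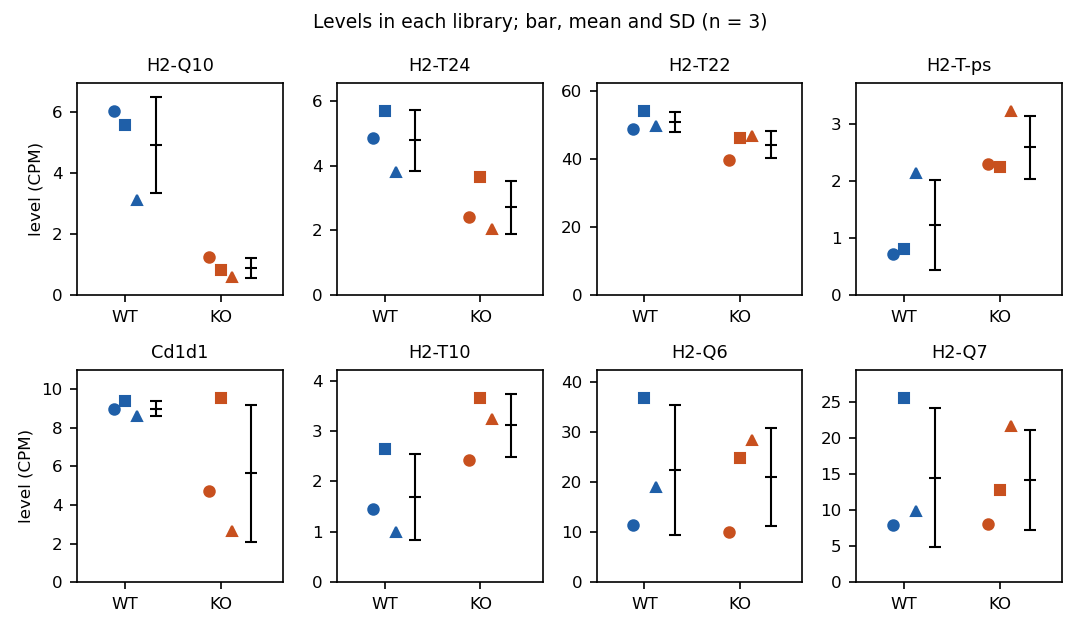
Level in CPM of 8 genes in each library (symbols, WT blue and KO orange, shape by replicate number), with the mean and SD of each group (n = 3) as a bar at its right; axes start at 0 and differ in scale. H2-Q10, H2-T24 and H2-T22 have no KO library at or above a WT library, H2-T-ps the reverse, and Cd1d1, H2-T10, H2-Q6 and H2-Q7 overlap.

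H2-Q6 and H2-Q7 encode Qa-2, a class I molecule held in the membrane by a lipid anchor. H2-Q6 was at 11.5, 36.8 and 19.0 CPM in WT and at 9.96, 24.7 and 28.4 CPM in KO. H2-Q7 was at 8.02, 25.6 and 9.95 CPM in WT and at 8.09, 12.8 and 21.7 CPM in KO. The highest library was 3.69 times the lowest for H2-Q6 and 3.19 times for H2-Q7, and both extremes of H2-Q7 were WT, while the group means were almost equal (log2 fold changes -0.07, SE 0.49, and 0.04, SE 0.48). H2-Q4 was at 33.9 to 56.8 CPM in WT and at 34.2 to 53.2 CPM in KO, with overlapping groups and a log2 fold change of 0.05 (SE 0.23).

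Of the remaining nonclassical genes, H2-T23 encodes Qa-1, which shows leader peptides of other class I chains to NK cell receptors. It was at 50.9 to 67.7 CPM in WT and at 44.8 to 71.9 CPM in KO, with a log2 fold change of -0.02 (SE 0.20). H2-M3, which presents formylated peptides of bacteria, was at 3.79 to 6.51 CPM in WT and at 3.08 to 4.70 CPM in KO, with a log2 fold change of -0.24 (SE 0.31). H2-M2, H2-M5, H2-Q5 and H2-Q9 had means from 1.70 to 7.05 CPM, overlapping groups and log2 fold changes from -0.18 to 0.22.

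Cd207 encodes langerin, the lectin that marks Langerhans cells. It was at 10.4, 15.7 and 11.9 CPM in WT and at 15.3, 14.0 and 16.2 CPM in KO, with overlapping groups and a log2 fold change of 0.27 (SE 0.20, unadjusted p = 0.22). Cd1d1 encodes the molecule that presents lipids to NKT cells. It was at 8.96, 9.36 and 8.57 CPM in WT and at 4.70, 9.53 and 2.64 CPM in KO, so that KO replicate 2 was the highest of the 6 and the other KO libraries the lowest. The log2 fold change was -0.79 (SE 0.40, unadjusted p = 0.087). The difference rests on single libraries: without KO replicate 2 it was -1.23 at an unadjusted p of 0.0057 (limma adjusted p = 0.93), and without KO replicate 3 it was -0.39.

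Libraries of 1 genotype differed among themselves. WT replicate 2 was the highest of the 6 libraries for 23 of the 38 tested genes (60.5%), beside 20.01% of all genes tested, and was the lowest for 0. WT replicate 3 was the lowest for 14 of the 38 (36.8%, beside 18.2% of all genes) and the highest for 0 (19.9% of all genes). These counts are over genes that share their libraries and are a description. The 23 class I members (heavy chains and assembly genes) deviated from their 6-library mean by a median of 0.41 in WT replicate 2 and 0.31 in KO replicate 3, and by -0.31 in KO replicate 1, on the log2 scale.

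The 8 class II members and the macrophage markers shared part of this order. Class II members deviated by a median of 0.36 in WT replicate 2 and 0.17 in KO replicate 2, the libraries with the highest macrophage deviations (0.51 and 0.43), and by -0.25 in WT replicate 3 and -0.17 in KO replicate 1, where the macrophage markers deviated by -0.37 and -0.45. In KO replicate 3 class I members were at 0.31 and immunoproteasome subunits at 0.37, while leukocyte markers were at -0.43 and macrophage markers at -0.27. WT replicate 1 had the reverse, with class I members at -0.16 and immunoproteasome subunits at -0.04. Its leukocyte markers were at 0.33 and its macrophage markers at 0.12. The part of the cell makeup of each punch in these levels was not tested.

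**Figure D4:**
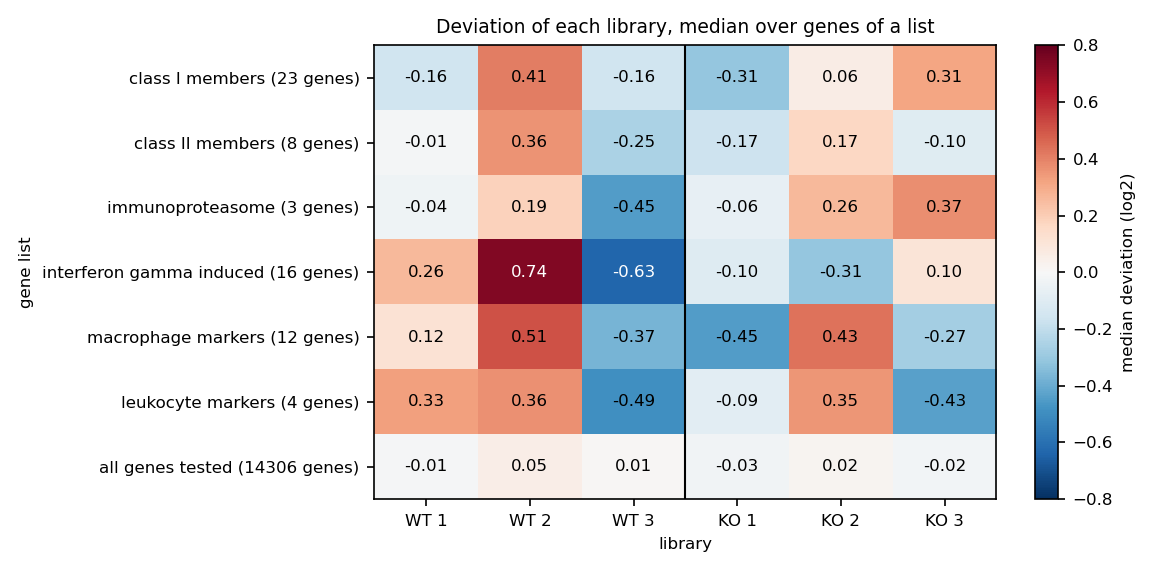
Median over the genes of a list of the deviation of log2(CPM + 0.5) from the mean of the 6 libraries, for each library (columns, the line parts WT from KO) and list (rows, with the number of genes). WT replicate 2 is above 0 for the 6 lists plotted (0.19 to 0.74) and at 0.05 for all genes; the hair follicle and keratinocyte lists, at -5.47 and 0.07 there, are not plotted. KO replicate 3 is high for class I members (0.31) and low for leukocyte markers (-0.43).

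Genes that act around the MHC were taken from lists of 65 genes that are not in the set, of which 59 were tested. None passed an adjusted p of 0.05 in limma. At an unadjusted p below 0.05, 1 was lower (Procr) and 1 higher (Ifngr2), 1.69% each, beside 1.82% and 1.06% of all genes, so that both shares are near the background. The median log2 fold change over the 59 was -0.04, beside -0.032 over all genes, with 38 below 0 and 21 above (64.4% below 0, beside 56.7% of all genes).

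Ifngr2 encodes the signalling chain of the interferon gamma receptor and lies on chromosome 16, as Adipoq does. It starts at base 91547059, much farther from Adipoq than Ciita is (12.6 Mb). The strain origin of the Ifngr2 alleles in each mouse was not tested. Ifngr2 was at 38.7, 37.8 and 35.6 CPM in WT and at 44.1, 51.0 and 50.5 CPM in KO. The KO libraries were all higher than the highest WT library, with a log2 fold change of 0.37 (SE 0.12, unadjusted p = 0.015; limma adjusted p = 0.998). Of the 15 genes of the interferon gamma pathway and of the factors on class II promoters, 8 had a lower and 7 a higher mean log2 level in KO.

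Of the 16 tested genes that interferon gamma induces, 12 had a log2 fold change below 0 (75%, beside 56.7% of all genes), with 0 at an unadjusted p below 0.05 and a median log2 fold change of -0.11. The lowest p was that of Gbp2, which encodes a GTPase of cell-autonomous defence. It was at 19.4, 21.97 and 10.7 CPM in WT and at 14.0, 7.01 and 9.40 CPM in KO (log2 fold change -0.74, SE 0.34, unadjusted p = 0.060). The 16 genes deviated from their 6-library mean by a median of 0.74 in WT replicate 2 and -0.63 in WT replicate 3, so that the extremes of this list were both WT.

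Among the class I-like molecules encoded elsewhere, Procr, the endothelial receptor of protein C, was at 12.1, 10.8 and 19.6 CPM in WT and at 6.98, 11.2 and 4.41 CPM in KO. The groups overlapped, and the log2 fold change was -0.91 (SE 0.36, unadjusted p = 0.037; limma adjusted p = 0.998). The endothelial markers given above had lower means in KO too, and their part in this was not tested.

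The remaining lists held no gene at an unadjusted p below 0.05. The lowest p was that of Hspa5 among 5 class I loading partners (log2 fold change -0.22, unadjusted p = 0.16) and of Ctsb among 8 genes of class II processing (-0.23, unadjusted p = 0.31). It was that of Cd83 among 7 costimulators and checkpoints (-0.30, unadjusted p = 0.29), whose KO libraries all lay below WT. Among 3 proteasome activators it was Psme3 (-0.05, unadjusted p = 0.73), and among 3 constitutive proteasome subunits Psmb7 (-0.04, unadjusted p = 0.74).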

How the data were processed

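Per the labels, RNA came from bitten ears of 3 Adipo+/+ and 3 Adipo-/- mice. The authors aligned paired-end reads to mm10 with STAR 2.7.3a, divided reads among transcripts with the E/M method of Partek and deposited CPM (gene counts over the library total, plus 0.0001). The remaining deposited columns, gene positions and strand, were used with the listed ends lowered by 1. Strand use in counting and the authors' test are not given in the sources used here.

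Genes were kept where their 6 libraries averaged 1 CPM or more, and were tested on log2(CPM + 0.5) with limma 3.58.1 (R 4.3.3), trended variance, KO against WT without covariates, Benjamini-Hochberg over all genes tested. The 95% intervals are those of limma. A fold change on this scale understates the change of low genes. The code was tested on simulated data. Depth was inferred from the steps between low values, of which 91.9% to 93.0% were whole reads within 0.1. Intervals cover the spread between mice. The members and lists were chosen with earlier results of these data known. Values are given for genes named by role and, of the rest, for the 2 lowest p in each direction, beside other members by levels and counts. H2-T22, Ctss without a library, H2-K2, H2-Q6 and H2-Q7 were singled out after their values were seen. Alternatives were 3 scalings, 2 pseudocounts, 2 filters, no trend, a replicate block, voom on recovered reads and leaving out each library.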

Additional observations from a re-analysis of the deposited data

How the results depend on the processing

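Replicate numbers were not treated as pairs. Deviations of same-numbered libraries correlated at 0.38, -0.31 and -0.22, and those of unlike number at -0.38 to 0.45. Whether the numbers mark a shared origin cannot be told from these values. The replicate block left 2 members lower and 0 higher at an unadjusted p below 0.05. No member and no pathway gene passed an adjusted p of 0.05 under any of the 16 alternatives. The count of members lower at an unadjusted p below 0.05 (2) was 1 with a pseudocount of 0.1, median-of-ratios, quantile scaling and a total without Rn45s, 0 with a mean of at least 5 CPM, a filter that removes H2-Q10 and H2-T24, and 1 to 3 without 1 library. The count of higher members (0) was 1 without a filter (H2-K2), 2 without the trend (H2-T-ps, H2-T10) and 0 to 1 without 1 library. H2-Q10 kept an unadjusted p below 0.05 in all 15 alternatives that tested it (0.00047 to 0.0066). Its log2 fold change ran from -2.34 to -1.24.

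The sign of small differences depended on single libraries. Leaving out 1 library at a time, the log2 fold change ran from -0.13 to 0.31 for H2-K1, -0.01054 to 0.27 for H2-D1, -0.48 to 0.11 for B2m, -0.085 to 0.33 for Tap1, -0.13 to 0.054 for Erap1, -0.099 to 0.25 for Psmb9, -0.12 to 0.31 for Nlrc5, -0.15 to 0.155 for H2-Aa, -0.18 to 0.11 for H2-Ab1, -0.17 to 0.091 for H2-Eb1, -0.18 to 0.17 for Cd74, -0.44 to 0.065 for Ctss, -0.17 to 0.28 for Ciita and -0.075 to 0.25 for the log2 ratio of Psmb9 to Psmb6. Differences that kept their sign moved too, such as those of H2-DMb1 (-0.45 to -0.02) and Cd1d1 (-1.23 to -0.39), and the log2 ratios of Psmb8 to Psmb5 (0.20 to 0.84) and Psmb10 to Psmb7 (0.17 to 0.51). Rescaling also turned Cd74 (0.0198 with median-of-ratios, 0.0065 with quantile scaling, 0.0099 without Rn45s) and H2-Eb1 (0.0015 with quantile scaling). The causes of these shifts were not tested. Depth limits the low genes, since 3 reads amount to 0.455 to 0.881 CPM.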
